A study of Mus musculus with 2 samples.

Results

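The vascular endothelial growth factor (VEGF) family was followed here through 10 genes, namely 5 ligands, 3 receptor tyrosine kinases and 2 neuropilins. The members were taken by gene name from the probes of a mouse microarray, with Figf read as Vegfd, and they make up 10 of 37009 gene names. They were covered by 29 of 56605 non-control probes, each printed in 1 spot. The study compared 2 arrays, 1 from lymph node stromal cells of normal mice without a tumor and 1 from nodes draining a 4T1 tumor. The 4T1 cells, a mammary carcinoma line that derives from BALB/c, had been inoculated under the skin at the mammary gland 2 weeks before collection, in C57BL/6 mice, and both samples were female. Cells negative for CD45, an antigen of leukocytes, were flow-sorted for both, and the age and number of the mice are not given in the sources used here. Each group has 1 array, so no difference has a replicate check and no p-value is given. The number of arrays limits the precision.

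VEGF ligands are secreted proteins that drive the growth of vessels. Vegfa acts mainly through Kdr (VEGF receptor 2) on blood endothelium, Vegfc and Vegfd act through Flt4 (VEGF receptor 3) on lymphatic endothelium, and Vegfb and Pgf bind Flt1 (VEGF receptor 1). Neuropilins are co-receptors that bind both VEGF ligands and class 3 semaphorins, and they signal together with the receptor kinases or with plexins. In lymph nodes, fibroblastic reticular cells are known as a source of Vegfa, and the node's vessels and lymphatic sinuses carry the receptors.

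The probes below are shown because results on isoforms or on disagreement between probes turn on them. Each is the array's own 60-base oligonucleotide in whole, 5′ to 3′, or a stretch of 30 bases of it, and capitals mark a run in which T and G alternate.
Vegfa probe in transcript variant 1, bases 1 to 60: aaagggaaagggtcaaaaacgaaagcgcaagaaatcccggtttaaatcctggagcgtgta
Vegfc probe of the reference transcript, bases 1 to 60: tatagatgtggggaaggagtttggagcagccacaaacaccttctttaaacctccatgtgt
Vegfc probe of isoform 62, bases 16 to 45: aagttgttacagaagaccgtgtgcgaatcg
Flt1 probe of the RefSeq transcript, bases 16 to 45: atcgggattctctggttctgcttaaagact
Flt1 probe of the Ensembl transcript model, bases 16 to 45: accacacaaagtcatgtcaaacattaaagg
Kdr probe of the soluble receptor mRNA, bases 16 to 45: gaaataaatcctctaacctgaataaaacca
Nrp2 probe of transcript variant 1, bases 16 to 45: gaactcgagagcttttactgtgattcttca
Nrp2 long-span probe of variants 5 and 6, bases 1 to 60: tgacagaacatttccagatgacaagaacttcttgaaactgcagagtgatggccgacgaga
Nrp2 run probe of variants 5 and 6, bases 26 to 55: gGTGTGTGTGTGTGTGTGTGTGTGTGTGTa
The Nrp2 run probe carries an alternating T and G run of 28 bases, and the longest such run, or run of C and A, in any other member probe was 6 bases.

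Most of the family was lower on the tumor-draining array. Of 10 genes, each read by its brightest probe and all above background on both arrays, 8 were lower by 2-fold or more, referred to here as called lower (and the opposite as called higher). Over all 22152 genes so measured, 15.9% were called lower and 11.1% called higher. Vegfb was lower by less than 2-fold (and turned above 0 under spike-in scaling), and Nrp2 was 2.14-fold higher on a probe that its other probes did not follow. The median difference of the members was -2.52 on the log2 scale (tumor-draining minus normal), against 0.10 for all genes above background on at least 1 array. At the level of probes, 25 were above background on both arrays, of which 23 were called lower, 1 was called higher and 1 was within 2-fold. Among all 34042 probes above background on both arrays, 14.8% were called lower and 12.4% called higher. Signals were divided by each array's 75th percentile, which was 374 on the normal array against 358 on the tumor-draining one. Scaling to spike-in RNA instead raised every difference by 0.77, and with it 8.55% of all genes were called lower and 43.8% called higher, while 7 members were called lower and 1 was higher. That shift is the median difference of 10 spike-in probes with the sign reversed, and their own differences ran from -0.94 to 0.33.

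**Figure D1:**
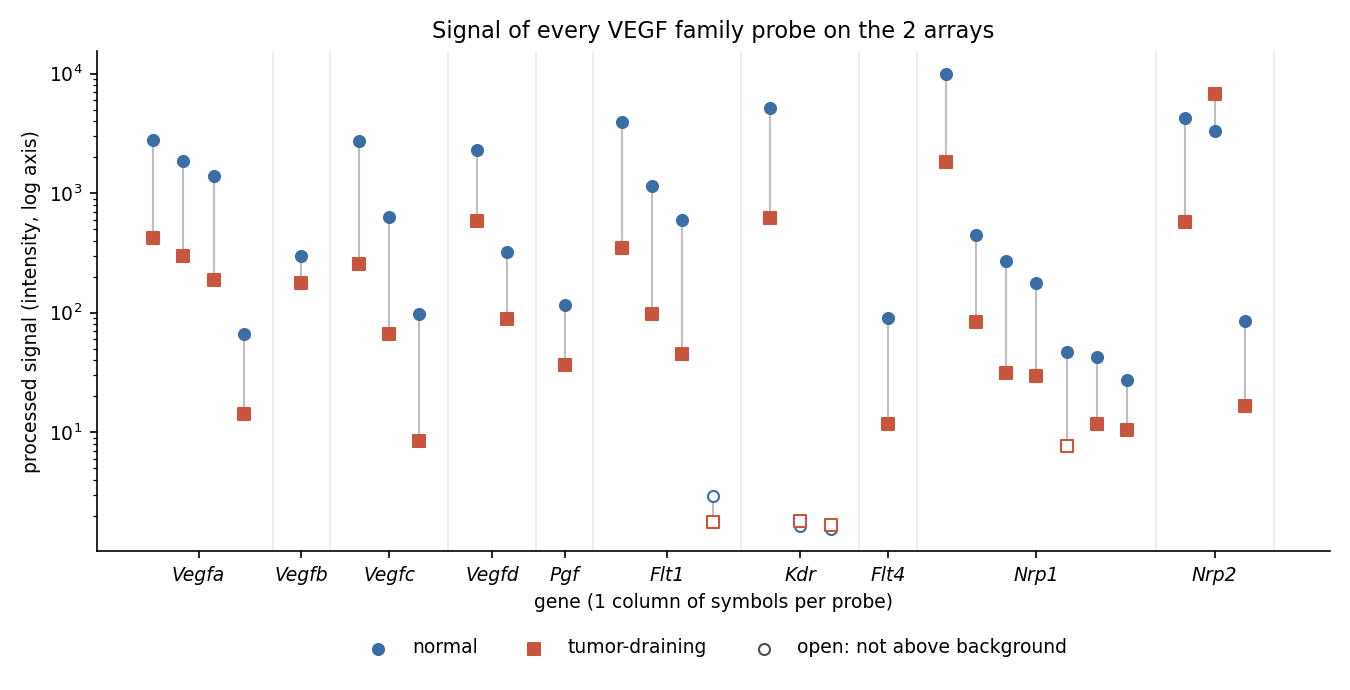
Processed signal (log axis) of each of the 29 VEGF family probes on the normal array (circles) and the tumor-draining array (squares), with open symbols for probes not above background. The tumor-draining symbol lies below the normal one for every probe above background on both arrays other than 1 Nrp2 probe.

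The only errors in the files are those of spots. The scanner software gives an error for each spot's signal, and over both arrays it came to 0.20 to 0.35 on the log2 scale for the 25 member probes. Across 298 probes printed 10 times, the median SD of the log2 difference between spots was 0.050. Probes of 1 gene spread more widely, with a median SD of 0.27 over 7599 genes. None of these errors covers differences between mice or between sorts.

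Both arrays held signal of leukocyte genes in spite of the sort. Ptprc, which encodes CD45, read 3702 on the normal array against 17432 on the tumor-draining one. Each of the 8 pan-leukocyte genes was called higher on the latter, and their summed signal went from 29176 to 93297. All 14 blood endothelial markers and all 9 lymphatic endothelial markers were called lower, and the summed signals of these lists were 88566 and 18507 for the former, and 47027 and 9440 for the latter. Under spike-in scaling 12 and 8 of them were called lower. Defining endothelial genes stayed above background on both arrays, among them Pecam1 (581 and 248), Cdh5 (1801 and 333) and Prox1 (920.2 on the normal array against 123 on the tumor-draining one). In such bulk samples, fewer cells of a type and less RNA per cell cannot be told apart. How much of each VEGF family difference goes with these lists was not tested.

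Among the ligands, the lymphatic growth factor Vegfc showed the lowest difference. Its brightest probe read 2713 on the normal array against 255 on the tumor-draining one, 10.2-fold lower, with a log2 difference of -3.35 and a software error of 0.20. The probe lies at chr8:55271533-55271592 in the mm9 build of the array files. A second probe of the reference transcript, printed above, read 97.6 and 8.48, a difference of -3.46. That tumor-draining signal is close to the lowest signal called above background on that array, 8.27, so the fold rests on a value at the edge of detection, and normexp background correction gave -1.25 for it. The probe of the transcript deposited as isoform 62 read 637 and 65.7, a difference of -3.22. Its genomic span of 108088 bases shows that its bases lie apart in the genome. The 3 probes thus lay within 0.25 of each other, under the combined software error of 0.41 for the pair furthest apart. Of all genes above background on both arrays, 0.406% had a lower difference than Vegfc.

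Vegfa, the central factor of blood vessel growth, was lower on all 4 of its probes. The brightest read 2790 on the normal array against 422 on the tumor-draining one, 6.33-fold lower (difference -2.66). A probe at chr17:46155512-46155571 read 1872 and 298, a difference of -2.59. The variant 1 probe printed above read 66.1 and 14.2 and had the smallest difference, -2.16. Vegfa is known for splice forms that differ in a basic, heparin-binding stretch. The SD of the difference over the 4 Vegfa probes was 0.28. The variant 1 probe and the brightest one lay 0.50 apart, against a combined software error of 0.34, and with normexp the difference of the printed probe shrank to -0.75. The files assign both probes to variant 1, and each also to transcripts not listed for the other. Whether this gap is one between isoforms was not tested. Of 8 hypoxia-response genes that control Vegfa, 1 was called lower, 1 called higher and 6 were within 2-fold (3 called higher under spike-in scaling). Over all genes 15.9% were called lower and 11.1% called higher, and 43.8% were called higher under spike-in scaling. The counts for this list thus do not set it apart from all genes. Epas1, a hypoxia-inducible factor subunit abundant in endothelium, had a difference of -2.36. Hif1a, the widely expressed subunit, had a difference of 0.26, and Hif1an, an inhibitor of hypoxia-inducible factors, had the highest of the list, 1.39. Of 10 epithelial and mammary carcinoma markers, 8 were within 2-fold and 2 called higher (Krt14 and Krt5; 7 under spike-in scaling), with a median of 0.29.

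Vegfd, a lymphatic growth factor made by fibroblasts, and Pgf, the placental growth factor, were lower by smaller amounts. Vegfd read 2284 on the normal array against 590 on the tumor-draining one (3.71-fold lower, difference -1.89), and a second probe at chrX:160832499-160833909, a span of 1411 bases, read 323 and 87.8 (difference -1.82). Those differences lay 0.075 apart, within the combined software error of 0.29. Pgf had 1 probe, with signals of 117 and 36.8, a difference of -1.61. It was within 2-fold under normexp (-0.84) and under spike-in scaling (-0.84). Vegfb, which is linked to lipid handling in muscle and fat more than to vessel growth, had 1 probe with signals of 300 and 176. Its difference of -0.71 was the closest to 0 of the family, and it turned to 0.058 under spike-in scaling. Of all genes above background on both arrays, 20.2% had a lower difference than Vegfb.

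Enzymes that process Vegfc and Vegfd did not move as one group. Of 8 genes, 6 were above background on both arrays, 2 of these were called lower and none called higher (1 and 2 under spike-in scaling). The shares over all genes were 15.9% lower and 11.1% higher (8.55% and 43.8% under spike-in scaling). Ccbe1, the extracellular cofactor that promotes cleavage of the Vegfc precursor, had signals of 482 and 51.5 and the lowest difference, -3.17. Its partner protease Adamts3 was above background on the normal array only, at a signal of 11.5. The proprotein convertases Furin and Pcsk7 had differences of 0.23 and 0.25, and Pcsk5 had one of -1.46.

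**Figure D2:**
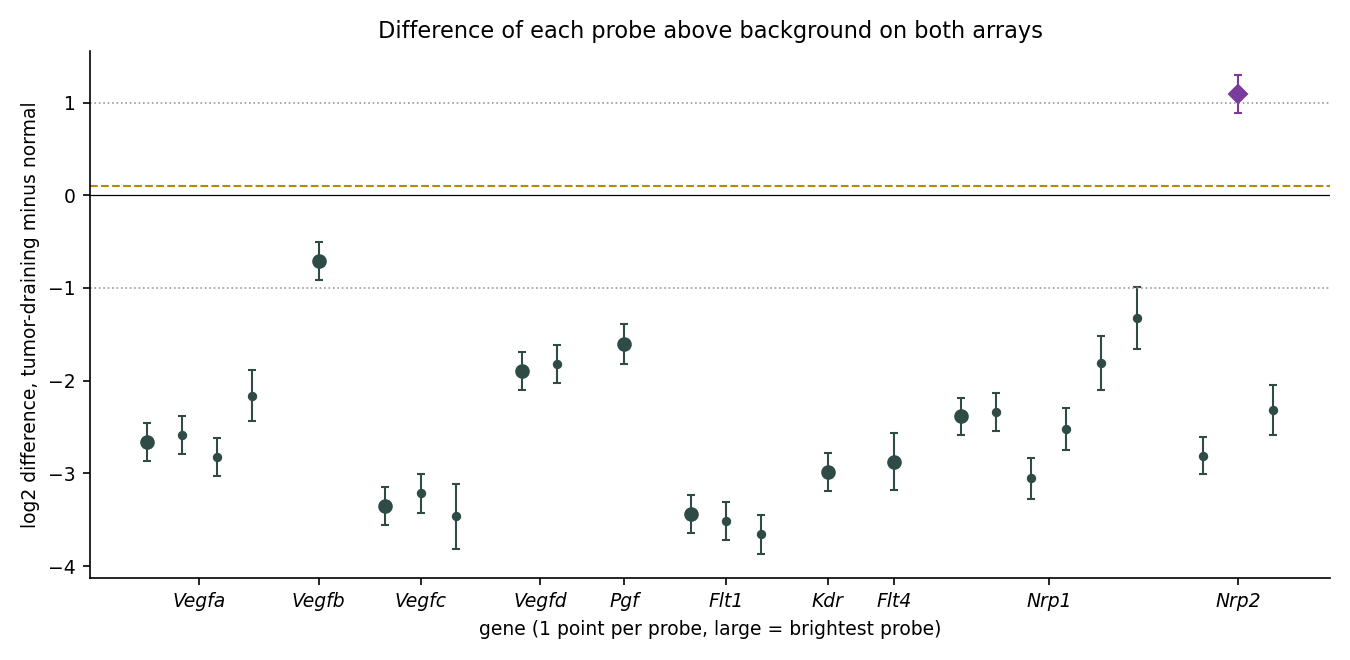
Log2 difference (tumor-draining minus normal) of the 25 member probes above background on both arrays, with the scanner software's error as bars and the brightest probe of each gene as a larger point. Dotted lines mark 2-fold, the dashed line is the median of all genes (0.10), and the diamond at 1.10 is the Nrp2 probe with the T and G run.

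All 3 receptor kinases were called lower in the reported setting. Flt1, which binds Vegfa tightly and in part acts as a decoy for it, read 3929 on the normal array against 346 on the tumor-draining one, 10.9-fold lower (difference -3.44). Flt1 is known to make a soluble receptor from a transcript that ends within the gene. The RefSeq probe lies at chr5:148373791-148373850, and 2 probes of an Ensembl transcript model lie 75038 and 76838 bases away, upstream on the minus strand. Those probes read 1159 and 97.2 (difference -3.51) and 598 and 45.5 (difference -3.66). These probes and the RefSeq probe lay at most 0.21 apart in their differences, under the combined software error of 0.29. With normexp background correction the RefSeq probe gave -3.20 and the other probes -2.89 and -2.66. The remaining Flt1 probe, from a placenta cDNA clone, was not above background on either array. With 0.302% of all genes lower, Flt1 had the lowest difference of the family by brightest probes.

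Kdr, the main signaling receptor of blood endothelium, read 5120 on the normal array against 621 on the tumor-draining one at chr5:76329309-76329368, a difference of -2.98. The 2 further Kdr probes were not above background on either array, with signals of 1.55 to 1.79. One is the probe of the soluble receptor mRNA printed above, and the other belongs to a transcript model named by an Ensembl identifier. No level or difference of the soluble form could be read at this signal. A mean over all 3 probes, which takes in these background values, gave -0.88 for Kdr.

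Flt4, the receptor for Vegfc and Vegfd on lymphatic endothelium, had 1 probe. It read 89.6 on the normal array against 11.7 on the tumor-draining one, 7.32-fold lower (difference -2.87), at chr11:49465646-49465705. Its software error of 0.31 was wider than that of Flt1 or Kdr (0.20 each), and normexp gave -0.998. The 3 receptor differences spanned -3.44 to -2.87. The range of the blood endothelial markers was -3.54 (Emcn, a sialomucin) to -1.17 (Pecam1, the adhesion molecule CD31), with a median of -2.76. Lymphatic markers ran from -2.84 (Prox1, the regulator of lymphatic identity) to -1.22 (Reln), with a median of -2.31. Flt1, Kdr and Flt4 lay within the blood endothelial range, and Flt1 lay below the lymphatic one. Kdr (-2.98) and Flt4 (-2.87) were within their software errors of Prox1, the lowest lymphatic marker. The tumor-draining signal of Flt4 was also near the lowest called above background there (8.27). Whether the receptors differ from the lists cannot be tested with 1 array per group.

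**Figure D3:**
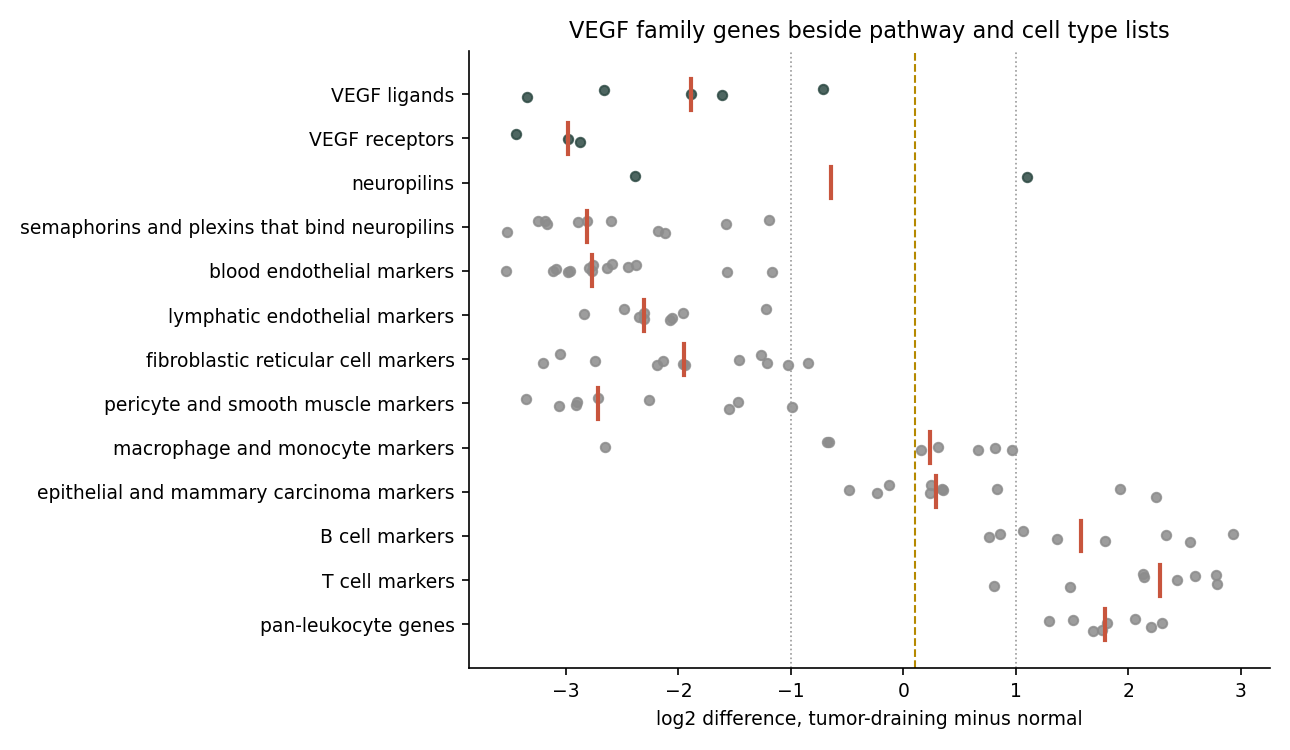
Log2 difference of each gene above background on both arrays for the VEGF ligands, receptors and neuropilins and for lists of pathway genes and cell type markers, with the median of each list as a bar. Ligands, receptors and Nrp1 lie below 0 (Vegfb turns to 0.058 under spike-in scaling), as do the medians of the endothelial, fibroblastic and mural lists, and those of the pan-leukocyte, B cell and T cell lists lie above 0.

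All 3 receptors were lower, and the 250 bases before the annotated starts of Flt1 and Kdr are given as examples. They come from RefSeq (GRCm38.p6, a later build than that of the array), and all 10 members matched a promoter entry, with 12 starts in all. Capitals mark, on either strand, the GC box GGGCGG, the ETS-type core AGGAAG, the TATA box TATAAA and the cyclic AMP response element TGACGTCA, none of which overlap here.
Flt1, minus strand, chr5:147726012-147726261: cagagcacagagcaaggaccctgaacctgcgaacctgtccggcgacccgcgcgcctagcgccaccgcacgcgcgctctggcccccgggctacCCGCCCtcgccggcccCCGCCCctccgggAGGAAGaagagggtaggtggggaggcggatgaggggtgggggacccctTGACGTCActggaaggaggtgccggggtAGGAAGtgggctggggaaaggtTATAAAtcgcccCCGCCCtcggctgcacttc
Kdr, minus strand, chr5:75978456-75978705: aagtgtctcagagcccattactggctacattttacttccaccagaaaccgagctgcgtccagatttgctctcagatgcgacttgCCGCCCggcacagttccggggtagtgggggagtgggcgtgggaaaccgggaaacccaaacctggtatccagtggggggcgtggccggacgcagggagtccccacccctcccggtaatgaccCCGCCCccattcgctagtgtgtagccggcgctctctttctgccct
The GC box was in 10 of the 12 member windows and in 32.7% of 32851 windows of all genes. In the window of Flt4, which is not printed, it was the only one of the marked motifs. The ETS-type core was in 2 member windows (Flt1 and Nrp1) and in 29.5% of all. The TATA box was in 2 (Flt1 and Vegfd) and in 12.4% of all, and the cyclic AMP element in 1 (Flt1) and in 1.55% of all. The hypoxia response core ACGTG was in 1 window, of Vegfa, and in 16.6% of all. These are matches of letters in a short window and no measure of binding.

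Neuropilin 1 (Nrp1), the co-receptor of Vegfa that is also found on some T cells and dendritic cells, was lower on each of 6 probes above background on both arrays, by amounts that varied more than those of any ligand or receptor. Its brightest probe read 10044 on the normal array against 1841 on the tumor-draining one (5.23-fold lower, difference -2.39). Of its 7 probes, 6 were above background on both arrays, with differences from -3.05 to -1.33 and an SD of 0.60. The 3 probes of the reference mRNA gave -3.05, -2.39 and -2.34. Those of mouse cDNA clones gave -2.52, -1.81 and -1.33, and another clone probe was above background on the normal array only (47.3), at least 5.48-fold higher there. The 2 differences closest to 0 belonged to probes with signals of 42.5 and 27.5 on the normal array. On the tumor-draining array they read 11.6 and 10.5, near the lowest signal called above background (8.27), and normexp gave -0.51 and -0.25 for them. Regulatory T cell markers, whose cells are known to carry Nrp1, were called higher for 4 of 6 genes, with Foxp3 at 39.5 and 234. Of 9 dendritic cell markers above background on both arrays, 3 were called higher and 1 called lower. How these lists relate to the Nrp1 values was not tested.

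Neuropilin 2 (Nrp2), the co-receptor of Vegfc and a semaphorin receptor of lymphatic endothelium, was the single member whose probes went in opposite directions. The variant 1 probe, at chr1:62865129-62865188, read 4221 on the normal array against 578 on the tumor-draining one, a difference of -2.81. The files assign this probe to other Nrp2 RefSeq transcripts as well. The long-span probe of variants 5 and 6, at chr1:62818403-62829910 (a span of 11508 bases), read 85.1 and 16.4, a difference of -2.31 (-0.87 with normexp). The run probe, at chr1:62843061-62843120, read 3321 and 6804, a difference of 1.10. The files assign the run probe and the long-span probe to the same RefSeq transcripts, yet their differences lay 3.41 apart, against a combined software error of 0.34. By mean signal the run probe is the brightest, so it stands for the gene in the reported setting.

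After these values were seen, other probes with such a run were looked up, and they went the same way. On the array 48 probes, of 48 gene names and with the Nrp2 probe among them, hold an alternating T and G run of at least 20 bases. All 48 were above background on both arrays and all 48 were higher on the tumor-draining array, by 0.74 to 2.77. Without the Nrp2 probe, the other 47 had a median difference of 1.03 with quartiles of 0.92 and 1.11. The Nrp2 probe, at 1.10, lay inside those quartiles. Of the other 47, 55.3% were called higher, against 12.4% of all probes above background on both arrays. The 37 probes with a run of at least 24 bases, a minimum chosen after seeing the data, had a median of 1.06. The 32 probes with a run of C and A of at least 20 bases were all lower, with differences of -0.87 to -0.022 and a median of -0.62. Under spike-in scaling, which raises each difference by 0.77, the median of the C and A probes turns above 0 and the T and G probes stay above it. For 25 other genes with a T and G run on 1 probe and another probe above background, the gap of the run probe to the mean of the others had a median of 0.78 and ran from -1.35 to 4.29. The run probe was above the others in 22 of the 25, by 2-fold or more in 11, and in 2 it was below them by 2-fold or more. The corresponding gap for Nrp2 was 3.66, and 1 of the 25 had a larger one. Without the run probe, Nrp2 was read by the variant 1 probe, and 9 of 10 members were called lower and none higher (Vegfb was within 2-fold). The direction of Nrp2 thus depends on the probe, and the mean over its probes was -1.34.

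**Figure D4:**
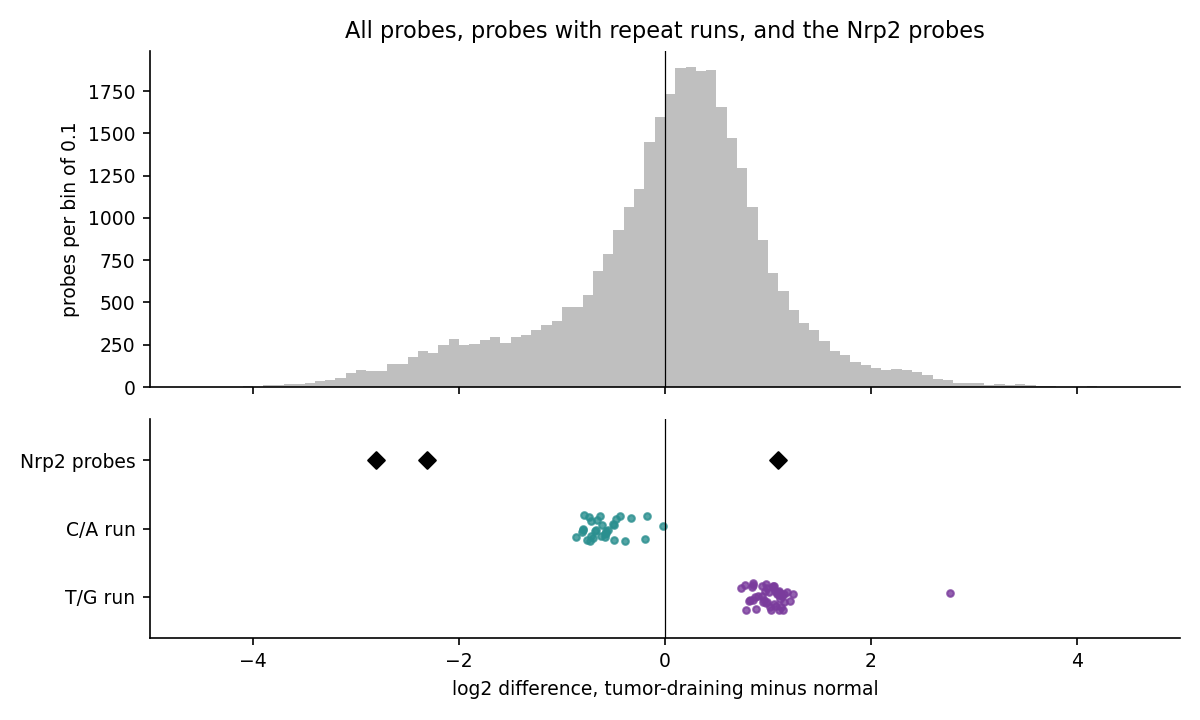
Log2 difference of all probes above background on both arrays (histogram, bins of 0.1), and below it the Nrp2 probes and the probes with an alternating C and A or T and G run of at least 20 bases, 1 point each (vertical spread within a row has no meaning). The 48 probes with a T and G run lie between 0.74 and 2.77, where the Nrp2 run probe lies at 1.10, while the other Nrp2 probes lie at -2.81 and -2.31.

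Partners of the neuropilins were lower as a group. Of 12 class 3 semaphorin and plexin genes, 11 were above background on both arrays and all 11 were called lower (9 under spike-in scaling), with a median of -2.82. The share called lower over all genes was 15.9% (8.55% under spike-in scaling). Blood endothelial markers had a median of -2.76 and pericyte and smooth muscle markers one of -2.71, so such a drop was not particular to this list. Sema3c had the lowest difference, -3.52, with signals of 1310 and 109. Plxna3, a plexin that pairs with neuropilins, had the smallest, -1.19, with signals of 145 and 61.0. Sema3e, which is known to act through Plxnd1 without a neuropilin, was not above background on either array.

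Genes of the receptor's signaling chain went in several directions. Of 20, 8 were called lower, 2 called higher and 10 within 2-fold, with a median of -0.73. Under spike-in scaling 6 were called lower and 3 higher. Over all genes 15.9% were called lower and 11.1% higher, and 8.55% and 43.8% under spike-in scaling. In the reported setting the count called higher thus does not set this list apart from all genes. The lowest was Ptprb, the endothelial receptor phosphatase, at -3.04, and Nos3, the endothelial nitric oxide synthase, had a difference of -2.19. The highest was Sh2d2a, an adaptor also found in T cells, at 2.48, with signals of 174 and 931. Prkcb, a protein kinase C used by B cells as well as by endothelium, had a difference of 1.08. Plcg1, Rac1 and Mapkapk2, which many cell types use, had differences of 0.15, 0.22 and 0.038. On the same arrays 7 of 8 T cell markers and 6 of 8 B cell markers were called higher. Which cells the signals of these signaling genes came from was not tested.

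Endothelial genes known to respond to VEGF were mostly lower. Of 11 genes, 10 were above background on both arrays, 6 of them called lower and 2 called higher (4 and 3 under spike-in scaling), with a median of -1.68. The shares over all genes were 15.9% lower and 11.1% higher (8.55% and 43.8% under spike-in scaling). Apln, a peptide of sprouting tip cells, had the lowest difference, -3.80, with signals of 152 and 10.4. Dll4, the Notch ligand of tip cells, had a difference of -2.94 and Esm1, another tip cell gene, -1.66. Egr3 and Dusp5, which other cells including lymphocytes also induce on stimulation, had differences of 1.62 and 1.09. The cells behind these signals were not tested. Nr4a1, an early response gene, had signals of 66833 and 76629, a difference of 0.26.

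Ligands and receptors were also set beside the other stromal lists. Of 12 fibroblastic reticular cell markers, 11 were called lower (7 under spike-in scaling), with a median of -1.95, and Pdgfrb, a receptor of mesenchymal cells, had a difference of -2.13. Pericyte and smooth muscle markers were called lower for 8 of 9 genes, with a median of -2.71. The ligand median was -1.89 and the receptor median -2.98. Vegfd (-1.89) lay near the fibroblastic median, and Pgf (-1.61) lay further from it. Both also lay within the ranges of the lymphatic, blood endothelial and pericyte lists, so their values pick out no single list. Vegfc, with -3.35, lay below the lowest fibroblastic marker, Ccl19 at -3.20, but within the blood endothelial and pericyte ranges. Which cells made the ligands was not tested. Macrophage and monocyte markers, whose cells can make VEGF ligands, were within 2-fold for 7 of 8 genes, with a median of 0.23 (4 were called higher under spike-in scaling). Among them Itgam, an integrin chain of myeloid cells, was read by a probe with a C and A run of 20 bases and had a difference of -0.66. The gene called lower, Mrc1, a mannose receptor that lymph node lymphatic endothelium also expresses, had a difference of -2.65.

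The choice of processing moved some members more than others. Vegfa, Vegfc, Vegfd, Flt1 and Nrp1 were called lower in all 13 settings, including the reported one. Flt4 and Kdr were called lower in 12, and Pgf in 11. Vegfb was within 2-fold in all 13, and Nrp2 ranged from -2.81 to 1.86. Some settings could not move a value. Those with no background filter and with a filter on mean signal left each member's value as reported. Leaving out the Nrp2 run probe could change Nrp2 alone. For Vegfb, Pgf and Flt4, with 1 probe each, a mean or median over probes is the reported value. The authors' table gave values close to those of quantile normalization for each member. The 13 settings are thus not 13 independent checks.

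**Figure D5:**
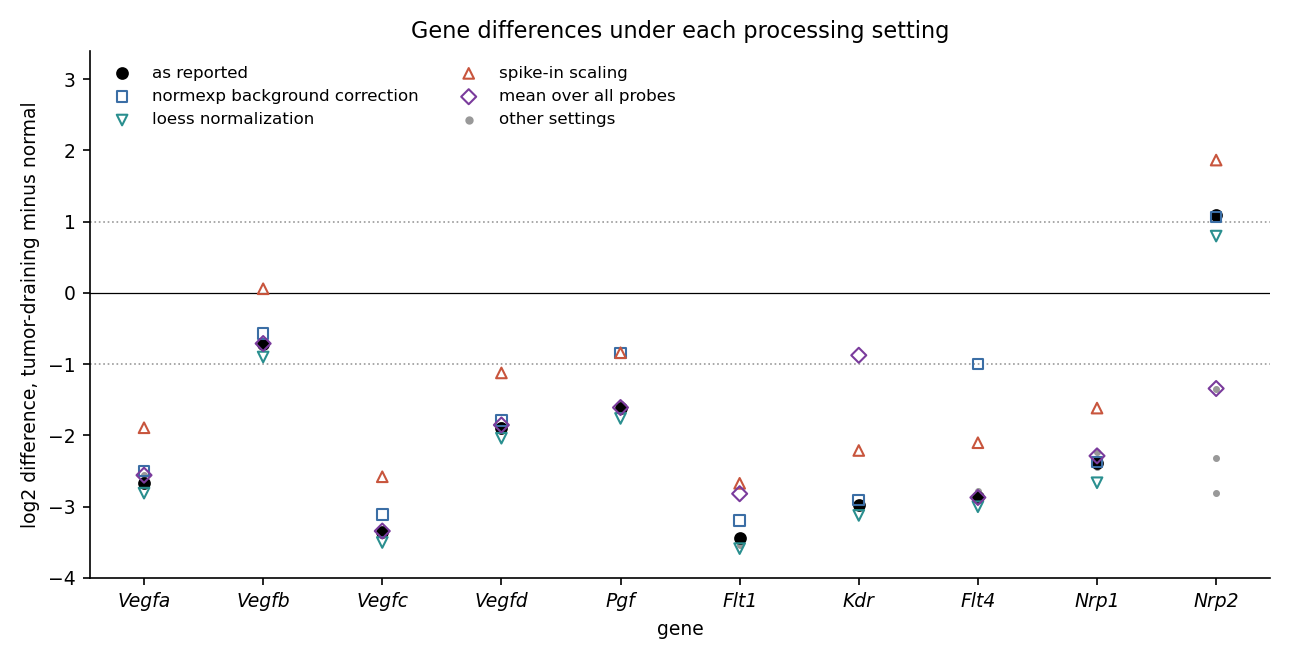
Log2 difference of each member in the reported setting and under each alternative, with dotted lines at 2-fold. Spike-in scaling gives the values closest to 0 for most lower genes, Kdr moves to -0.88 when background probes are averaged in, and Nrp2 takes either direction.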

How the data were processed

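Cy3-labeled RNA of the sorted cells was read on 2 Agilent arrays with 1 color each, per the labels. Spot intensities in the deposited files are linear, with background taken off by the scanner software (Agilent Feature Extraction 12.0.3.1, protocol GE1_1200_Jun14 and mm9 probe positions, per the file headers). Feature Extraction 10.7 and limma are listed, without a role, in the submitters' processing notes. Both arrays have the same scan time, per the file headers. A further deposited table of the authors has values on the log2 scale. Its columns correlated with the log2 processed signals of the same arrays across probes (r = 0.9999) and had medians of 4.85 and 4.86, so it has no centering by gene. How it was normalized remains unknown, and it served as an alternative. Its sorted columns differed by at most 0.17. Its member differences were close to those under quantile normalization (Kdr -3.01 in both, Nrp2 1.037 and 1.035), so it adds little as a separate check.

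Log2 processed signals were reduced by each array's 75th percentile over 59305 non-control spots. Outlier spots were left out, no non-control spot was saturated, and probes were taken as above background when the software had marked 50% or more of their spots so. Above-background probes numbered 36783 (normal) and 35572 (tumor-draining). A gene was read by its brightest probe. Genes were named through a RefSeq table (GRCm38.p6), and 1 probe that the table alone would have called a member, through a synonym, was not counted as one. Calls are differences of at least 2-fold in either direction. For a probe above background on 1 array, the dim side of the fold is its own value or the lowest above-background signal, whichever is higher. The files give no exon or UTR for a probe. The sequence of 1 Vegfa probe is not reported here, and its values enter only counts, summaries over probes and plots.

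The members, lists, naming rule and alternatives were chosen with earlier results of these data known. Named are all members, the ends of each pathway list, 5 marker genes and, chosen after their values were seen, further list genes and the repeat-run probes. Python 3.11.15, numpy 2.4.6, pandas 2.3.3, R 4.3.3 and limma 3.58.1 were used.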

Additional observations from a re-analysis of the deposited data

How the results depend on the processing

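Each setting was compared with the reported one, and a median counted as moved where it changed by at least 0.27, the median SD between probes of 1 gene. The median difference of the members was -2.08 with normexp background correction (offset of 50), -1.75 with spike-in scaling and -2.07 with the mean over all probes. The count of members at least 2-fold higher, 1 as reported, was 0 after loess (span 0.3), where Nrp2 was at 0.80, and 0 with the mean over all probes, the mean over probes above background and the median probe. The count of probes at least 2-fold higher was likewise 0 after loess. Leaving out the Nrp2 probe with the T and G run, an alternative added after seeing the data, gave 0 for both counts. Nrp2 was at -1.34 with either mean over probes, at -2.31 with the median probe and at -2.81 without that probe. The values of Nrp2 with the means, with the median probe and without that probe follow from which of its probes are read. The mean over all probes also takes in 2 Kdr probes not above background, with Kdr at -0.88. For the changes with normexp, loess and spike-in scaling, the cause was not tested. With normexp 6 members were at least 2-fold lower. Counts of members at least 2-fold lower stayed within 1.5 times the reported 8 in all settings. Quantile normalization, a scaling to the median above-background probe, the authors' deposited table, no background filter and a filter on mean signal kept both counts of genes. Dim probes (Flt4, Pgf, the second Vegfc probe and several of Nrp1) are limited by their signal over background. No paired analysis was possible because each group has 1 array.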
